A study of Mus musculus with 6 samples.

Results

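The circadian clock genes examined here are Arntl, Clock, Per1, Per2, Per3, Cry1, Cry2, Nr1d1, Nr1d2 and Dbp, 10 genes of the 30325 named on the array. They were found as the non-control probes whose gene name in the scanner files equals one of these symbols, which gave 14 of 39429 probes. Expression was measured in sciatic nerve of mice aged 1 month, in 3 pools of control littermates (Ctrl) and 3 pools of OGT_SCKO mice, with 1 array per pool. Both groups are on the background the labels give as C56 BL6. OGT is the enzyme that adds the sugar O-GlcNAc to proteins inside the cell. The series title concerns this modification in Schwann cells, the myelinating glia of peripheral nerve. The Cre driver, the deleted part of Ogt, the sex and number of animals in a pool and the time of day of dissection are not given in the sources used here. P-values rest on the spread between pools, and those of limma also draw on the spread of all genes. RNA came from whole nerve, so fewer cells of a type and less RNA per cell cannot be told apart.

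The clock is a feedback loop that runs in most cells over about a day. BMAL1, the product of Arntl, pairs with CLOCK and switches on the Per and Cry genes through E-box sequences, and the PER and CRY proteins then silence that pair. The nuclear receptors encoded by Nr1d1 and Nr1d2 repress Arntl, and Dbp, also switched on through E-boxes, acts on D-box sequences of output genes. O-GlcNAc itself is known as a modification of clock proteins.

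The promoter stretches that carry these elements are shown because the loop described above works through such sequences. Of the 10 genes, 9 had a window from 250 bases before to 50 bases after a transcript start in RefSeq (GRCm38.p6), 13 windows in all. Per2 was not among them. Both strands were searched for the E-box CACGTG, the E-box-like CACGTT, the D-box TTATGTAA, the ROR/REV-ERB half-site TAGGTCA or TGGGTCA, and the cAMP response element TGACGTCA. Among 32851 windows of the same length, 7.15% held the E-box, 4.68% the E-box-like letters, 0.938% the D-box, 6.45% the half-site and 1.79% the cAMP response element. Each stretch lies before the start, reads 5′ to 3′ on the gene's strand, and has the matches in capitals. AACGTG is the E-box-like sequence read from the other strand.
Per1, chr11:69098743-69098828, plus strand: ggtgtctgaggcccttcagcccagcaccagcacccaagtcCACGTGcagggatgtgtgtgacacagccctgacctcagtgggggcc
Cry1, chr10:85185069-85185173, minus strand: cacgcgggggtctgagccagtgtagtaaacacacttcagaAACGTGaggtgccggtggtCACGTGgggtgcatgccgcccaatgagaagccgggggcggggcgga
Cry2, chr2:92434190-92434275, minus strand: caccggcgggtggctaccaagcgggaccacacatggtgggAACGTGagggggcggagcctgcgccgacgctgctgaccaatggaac
Nr1d1, chr11:98775378-98775445, minus strand: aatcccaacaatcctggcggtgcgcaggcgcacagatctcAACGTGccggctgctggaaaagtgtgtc
Per3, chr4:151044776-151044910, minus strand: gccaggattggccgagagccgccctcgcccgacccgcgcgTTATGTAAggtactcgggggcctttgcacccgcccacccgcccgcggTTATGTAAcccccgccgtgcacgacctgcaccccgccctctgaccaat

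Positions are counted from the transcript start, with negative numbers before it. The E-box of Per1 lay at -166 to -161. Cry1 held an E-box at -60 to -55 and an E-box-like sequence at -79 to -74. Cry2 held an E-box-like sequence at -166 to -161 and Nr1d1 one at -28 to -23, and Per3 held 2 D-boxes, at -205 to -198 and at -158 to -151. A second Arntl window had a half-site at 31 to 37, after the start. The windows of Clock, Nr1d2 and Dbp held none of these letters, which says nothing of sequence outside the windows. A match is a description of letters.

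Of the clock genes, Per2 alone passed the test, and it was lower in OGT_SCKO nerve. It stood at 77.2% of the Ctrl level, and its call did not hold under most alternatives. The other 7 measured genes did not pass (limma adjusted p under 0.05 over all 19046 genes tested). Beside this count of 1 in 8, 23.3% of all genes passed, 11.2% higher and 12.1% lower. Per1, Per2 and Nr1d1 had groups that did not overlap, 3 of 8, as did 45.7% of all genes. Of all genes, 25.4% were lower without overlap, like Per1 and Per2, and 20.4% higher, like Nr1d1. With quantile normalisation, the deposited values or normexp background correction 2 of 8 did not overlap. The share of all genes under those alternatives is not given here, so that count has no comparison. Before adjustment 1 of the 8 had a p under 0.05, against 38.7% of all genes. The median log2 fold change of the 8 was -0.13, and that of all genes -0.07. Values below are log2 of the processed signal relative to the 75th percentile of the array, so that 0 is the level of that percentile, and the change is OGT_SCKO minus Ctrl.

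**Figure D1:**
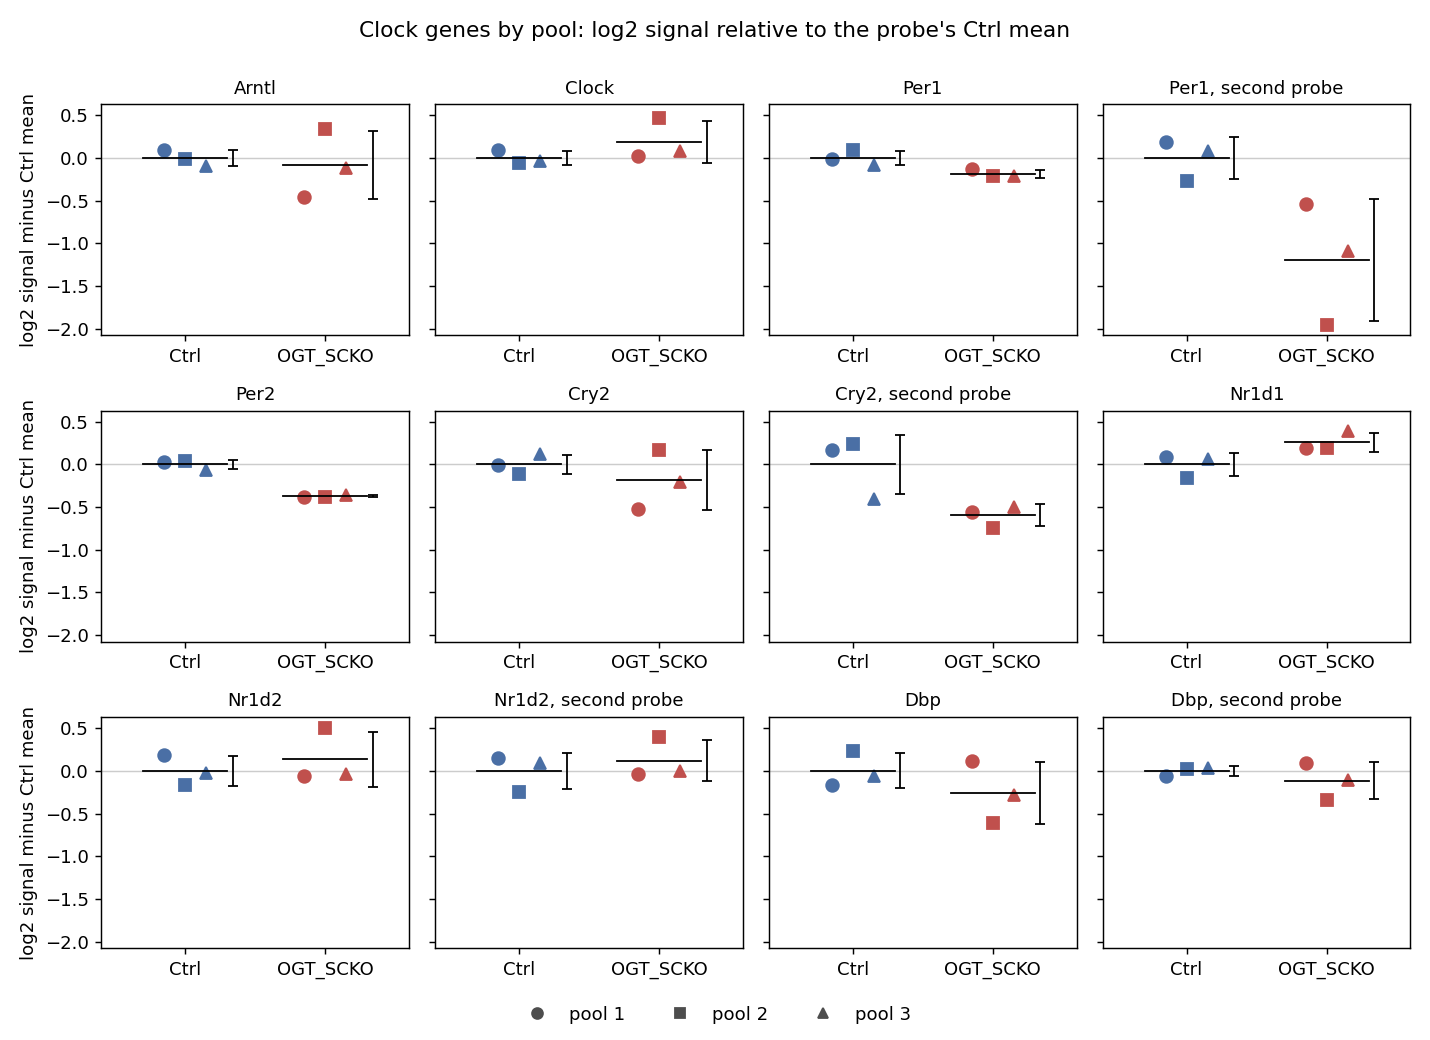
Log2 signal of the 12 measured clock gene probes by pool, as the difference from the probe's Ctrl mean; points are pools, horizontal lines group means and bars 1 SD (n = 3). The OGT_SCKO points of Per2 lie together below all Ctrl points, while the groups overlap in Arntl, Clock, the first Cry2 probe and both probes of Nr1d2 and Dbp.

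The positive arm gave no call in either gene. Arntl had values of -2.46, -2.57 and -2.66 in Ctrl and -3.02, -2.23 and -2.67 in OGT_SCKO. OGT_SCKO 1 was the lowest and OGT_SCKO 2 the highest of all 6 pools, with the Ctrl pools between them. The groups differed by -0.08 (SE 0.20, limma adjusted p = 0.804) in log2, with a 95% interval from -0.57 to 0.41, which reaches from 0.675 to 1.33 times the Ctrl level. Without OGT_SCKO 1 the difference was 0.11.

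Clock, which encodes the partner of BMAL1, had values of -0.50, -0.66 and -0.63 in Ctrl and -0.57, -0.12 and -0.52 in OGT_SCKO. OGT_SCKO 2 was above the other 5 pools, which overlapped. Its change was 0.19 in log2 (SE 0.15, limma adjusted p = 0.360), with a 95% interval from -0.16 to 0.55. Without OGT_SCKO 2 it was 0.05 (adjusted p = 0.765). The Arntl probe lies on chromosome 7 at 120457261 to 120457320 and the Clock probe on chromosome 5 at 76641377 to 76641436, both in the older build mm9 that the files use. Whether a probe is exonic or in a UTR was not analysed here.

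In the negative arm, Per2 encodes a PER protein that holds the repressor complex together. Its values were -0.35, -0.34 and -0.44 in Ctrl and -0.75, -0.76 and -0.74 in OGT_SCKO. Every OGT_SCKO pool was below every Ctrl pool, and the 3 OGT_SCKO pools were nearly level. Per2 fell 1.29-fold, by 0.37 in log2 (SE 0.09, limma adjusted p = 0.0339), with a 95% interval of the log2 fold change from -0.60 to -0.15. An exact permutation test over pools (two-sided) had p = 0.1, the smallest that 3 against 3 pools allow.

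The spread of Per2 between pools of a group was small, with a pooled SD of 0.041 against a median of 0.194 over all genes, and 1.25% of genes had one as small or smaller. Its limma SE of 0.09 does not rest on this SD alone, as it also draws on the spread of all genes. In the 19 alternatives its log2 fold change ran from -0.41 to -0.33, and 8 of them called it. Among these 8, the fit that weights the arrays was chosen after seeing the data and called 49.4% of all genes. Of the 3 control pools, only Ctrl 2 shared slide 1 with the OGT_SCKO pools; a fit with slide as a fixed block compares OGT_SCKO with that pool, and there Per2 had -0.41 (limma adjusted p = 0.162), and within slide 1 the adjusted p was 0.315. A random block for slide, with all 6 pools compared, gave Per2 -0.36 (adjusted p = 0.0239). Over all genes the correlation within a slide was estimated at -0.137. A random block therefore makes no allowance here for a shift shared by a slide. Leaving out Ctrl 1, Ctrl 2 or Ctrl 3 gave adjusted p of 0.112, 0.116 and 0.0922, and leaving out OGT_SCKO 2 or OGT_SCKO 3 gave 0.0528 and 0.115.

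Per1, its paralog and a fast-responding clock gene, had values of 4.16, 4.26 and 4.09 in Ctrl and 4.04, 3.96 and 3.96 in OGT_SCKO. The groups did not overlap, with a gap between OGT_SCKO 1 and Ctrl 3. A log2 fold change of -0.18 resulted (SE 0.10, limma adjusted p = 0.223; 95% interval -0.43 to 0.06), which did not pass. The size depends on the processing: it was -0.04 with quantile normalisation, -0.02 with the deposited values and -0.09 with normexp (adjusted p = 0.817, 0.899 and 0.584).

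A second Per1 probe, designed on another transcript record, was dimmer and differed more between groups. Its values were -2.48, -2.95 and -2.59 in Ctrl and -3.21, -4.63 and -3.76 in OGT_SCKO. Over the 24268 probes tested, of which 23.5% passed, its log2 fold change was -1.19 (SE 0.35, limma adjusted p = 0.0495), at 43.8% of the Ctrl level. All 3 OGT_SCKO pools were below Ctrl, and OGT_SCKO 2 was the lowest. A fixed block for slide gave -0.92 (adjusted p = 0.274) and a random one -1.24 (adjusted p = 0.029), and with normexp background correction, which draws dim values together, -0.68 (adjusted p = 0.297). The call also ended without Ctrl 1, Ctrl 2, Ctrl 3 or OGT_SCKO 3 (adjusted p = 0.139, 0.0826, 0.137 and 0.119). With the mean of both probes in place of the brighter one, Per1 itself had a log2 fold change of -0.69 (adjusted p = 0.0464).

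The probes are shown by their first 30 bases because 2 of the genes gave different values by probe. The first Per1 probe lies on chromosome 11 at 68923364 to 68923423 and the second at 68919895 to 68919954, and the Per2 probe on chromosome 1 at 93313046 to 93313105 (mm9).
Per1, first probe: gtgttctcagctctaccctctaccaatgac
Per1, second probe: ttagtgtttcagggcagtagaggtggccgg
Per2: acctttcacagtgatcaggtagtagccatg
Cry2, first probe: tctcccacagtttgtttgtgaatatttacc
Cry2, second probe: tcctcctgagtgctggaaattcagatacga

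Cry2 encodes a cryptochrome, the partner of the PER proteins. Its brighter probe, on chromosome 2 at 92243807 to 92243866 (mm9), had values of 0.57, 0.46 and 0.69 in Ctrl and 0.05, 0.75 and 0.37 in OGT_SCKO. OGT_SCKO 2 was the highest pool and OGT_SCKO 1 the lowest. The change in log2 was -0.18 (SE 0.19, limma adjusted p = 0.495; 95% interval -0.63 to 0.27). Without OGT_SCKO 1 it was -0.01 and without OGT_SCKO 2 it was -0.36 (adjusted p = 0.95 and 0.123).

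The second Cry2 probe, at 92251417 to 92251476, did separate the groups. Its values were 0.61, 0.68 and 0.04 in Ctrl and -0.11, -0.29 and -0.05 in OGT_SCKO, with Ctrl 3 close to the OGT_SCKO pools. In log2 the change was -0.60 (SE 0.19, limma adjusted p = 0.064 over probes), which did not pass. Without Ctrl 3 it was -0.80 (adjusted p = 0.0241). Whether the Per1 and Cry2 probes differ in change from their partners was not tested.

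Cry1 and Per3, the remaining members of the negative arm, were not well above background on any array. The processed signal ran from 22.5 to 23.0 for Cry1 and from 33.8 to 96.5 for Per3. No fold is given for either.

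The REV-ERB receptors were both measured. Nr1d1 had values of -0.50, -0.74 and -0.52 in Ctrl and -0.39, -0.40 and -0.20 in OGT_SCKO. All OGT_SCKO pools were above all Ctrl pools, by little in OGT_SCKO 1 and 2. Nr1d1 differed by 0.26 in log2 (SE 0.12, limma adjusted p = 0.160; 95% interval -0.03 to 0.55), which did not pass. Against Ctrl 2, with slide as a fixed block, it was 0.41 (adjusted p = 0.190).

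Nr1d2, its close relative, had values of 0.22, -0.13 and 0.01 in Ctrl and -0.02, 0.54 and -0.0032 in OGT_SCKO. OGT_SCKO 2 was the highest pool, and the rest overlapped. Between groups it differed by 0.14 in log2 (SE 0.19, limma adjusted p = 0.616; 95% interval -0.31 to 0.58), and without OGT_SCKO 2 it was -0.05. By a second Nr1d2 probe the difference was 0.12 (SE 0.17, limma adjusted p = 0.626), also with OGT_SCKO 2 highest.

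Dbp, the output factor, had values of 5.14, 5.54 and 5.26 in Ctrl and 5.43, 4.71 and 5.03 in OGT_SCKO. Ctrl 2 was the highest and OGT_SCKO 2 the lowest pool, and OGT_SCKO 1 lay among the Ctrl pools. Dbp differed by -0.26 in log2 (SE 0.21, limma adjusted p = 0.384; 95% interval -0.76 to 0.24). With quantile normalisation it was 0.0069 and with the deposited values -0.00013 (limma adjusted p = 0.963 and 0.999), so its direction depends on the scaling. It was -0.08 without OGT_SCKO 2, -0.15 without Ctrl 2 and -0.45 without OGT_SCKO 1 (adjusted p = 0.771, 0.698 and 0.0965). By the second Dbp probe the difference was -0.12 (SE 0.14, limma adjusted p = 0.555), which turned to 0.08 with quantile normalisation.

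**Figure D2:**
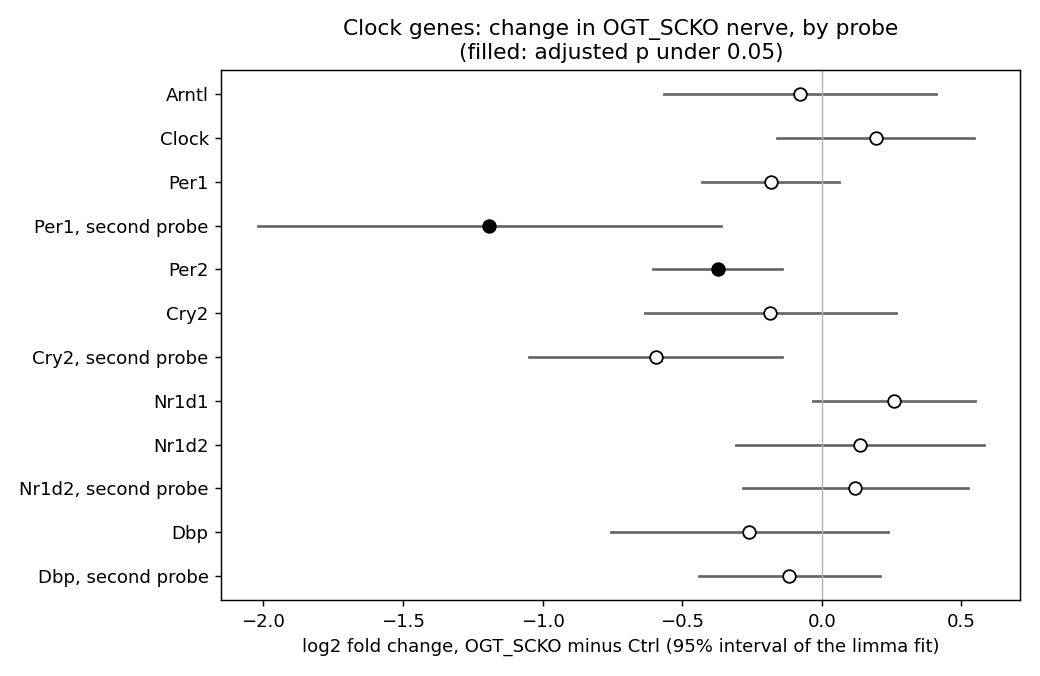
Log2 fold change (OGT_SCKO minus Ctrl) of each measured probe with the 95% interval of the limma fit over all probes; filled points have an adjusted p under 0.05. Of the 12 probes, the Per2 probe and the second Per1 probe are filled, and the intervals of Arntl, Clock, Nr1d1, Nr1d2 and Dbp span 0.

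The clock genes differed in how much pools of a group spread. The pooled within-group SD was 0.041 in Per2 and 0.069 in Per1, and 0.29 in Arntl and 0.30 in Dbp, against the median of 0.194 over all genes. The spread of Dbp depends on the scaling, as its SE of 0.21 was 0.09 with quantile normalisation. Before scaling, its signal ran from 128066 to 165110, with OGT_SCKO 2 at 160054. The scaled Dbp values ranked the pools in reverse order of the array's 75th percentile, except that Ctrl 1 and Ctrl 3 changed places. OGT_SCKO 2 was the highest of the 6 pools in Arntl, Clock, Cry2 and Nr1d2 and the lowest in Per1, Per2 and Dbp, 7 of 8 genes. Over all genes it was the highest pool in 22.0% and the lowest in 39.1%. That array also had the largest 75th percentile of signal, 6136 against 2749 to 4819 on the other arrays. The part of this in the values of the clock genes was not tested.

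**Figure D3:**
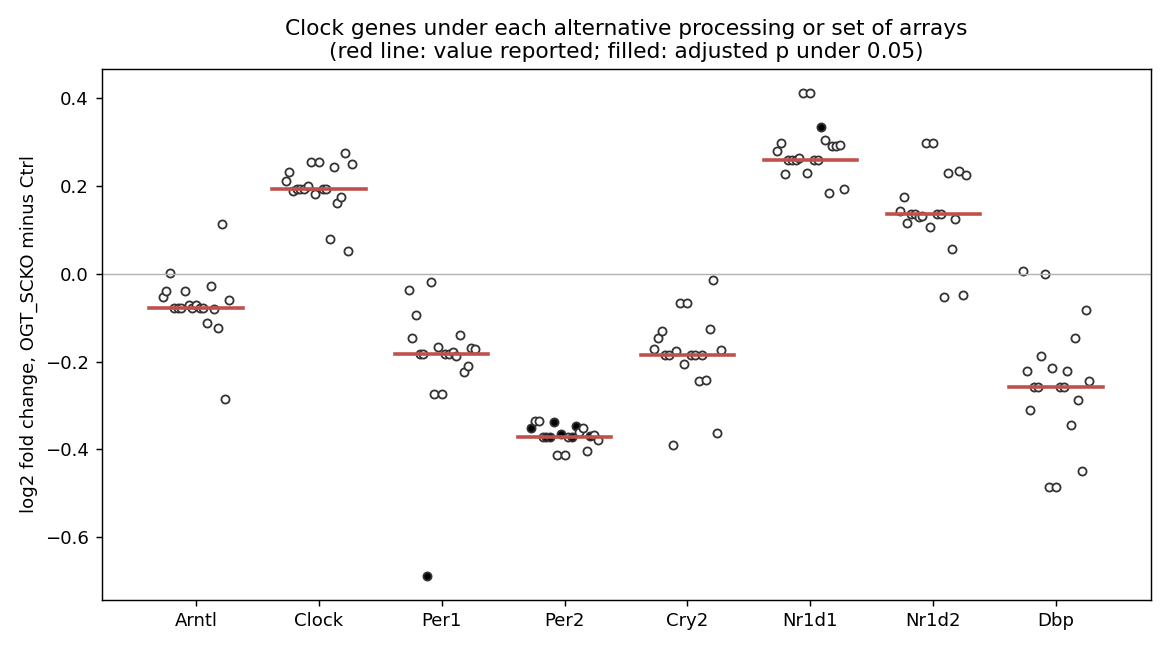
Log2 fold change (OGT_SCKO minus Ctrl) of the 8 measured clock genes under each of 19 alternatives (points) beside the reported value (red line); filled points have a limma adjusted p under 0.05. The points of Per2 stay between -0.41 and -0.33 and 8 are filled, while those of Arntl, Nr1d2 and Dbp lie on both sides of 0.

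Other genes of the clock were taken from 4 lists. Of 10 measured loop partners, Timeless rose, Arntl2 fell and 8 did not pass the test, beside 23.3% called among all genes, 11.2% higher and 12.1% lower. The median log2 fold change of the 10 was 0.15. Timeless, a relative of the fly clock gene that also acts in DNA replication, had values of -1.76, -2.22 and -1.98 in Ctrl and -0.99, -0.63 and -1.03 in OGT_SCKO. Its groups were well apart, and the log2 fold change was 1.11 (SE 0.17, limma adjusted p = 0.00611).

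Arntl2, the paralog of Arntl, had values of -0.65, -0.08 and -0.62 in Ctrl and -1.50, -2.43 and -2.36 in OGT_SCKO. All OGT_SCKO pools were below Ctrl, and Arntl2 changed by -1.65 in log2 (SE 0.29, limma adjusted p = 0.00959). A fixed block for slide gave Timeless 1.34 and Arntl2 -2.01 (adjusted p = 0.0292 and 0.0395), and within slide 1 neither passed (0.0825 and 0.102). With a random block for slide, which makes no allowance for a shift shared by a slide, all 7 genes called in the 4 lists passed. Rora, a receptor that activates Arntl, had a log2 fold change of 0.27 (adjusted p = 0.0844, and 0.0492 with quantile normalisation). With the mean of its probes, Rora had 0.56 (limma adjusted p = 0.0117), so its size depends on the probe. Nfil3, a repressor at D-boxes, had a log2 fold change of 0.66 (adjusted p = 0.0948).

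Of 16 genes that modify clock proteins, Ogt and Fbxl21 fell and 14 did not pass, beside 12.1% lower among all genes, with a median of -0.11. Ogt is the targeted gene and its fall is a check of the labels: its probes stood at 41.3% and 50.5% of Ctrl, and whether they lie in the deleted part is not known here. Fbxl21, an F-box protein that acts on cryptochromes, changed by -0.75 in log2 (SE 0.16, limma adjusted p = 0.0187). Its call ended with normexp (-0.31, adjusted p = 0.380), with slide as a fixed block (-0.57, adjusted p = 0.177) and without Ctrl 1, Ctrl 3 or OGT_SCKO 3 (adjusted p = 0.0695, 0.0718 and 0.0674). The kinases Gsk3a and Csnk1e had log2 fold changes of -0.30 and -0.34 (adjusted p = 0.0895 and 0.105). Gsk3a had -0.22 with quantile normalisation and -0.19 with the deposited values (limma adjusted p = 0.128 and 0.145). Csnk1e had -0.16 with the mean of its probes (limma adjusted p = 0.263). The gene that removes O-GlcNAc appears under both its names: the brighter probe, Mgea5, had a log2 fold change of -0.23 (adjusted p = 0.455) and the dimmer one, Oga, -1.16 (adjusted p = 0.000786 over probes).

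Of 12 rhythmic output genes, Lpin1 rose and 11 did not pass, beside 11.2% higher among all genes, with a median of 0.09. Lpin1, a phosphatidate phosphatase, had values of -1.13, -0.996 and -0.80 in Ctrl and -0.26, -0.26 and -0.08 in OGT_SCKO. The groups did not overlap, and the log2 fold change was 0.77 (SE 0.13, limma adjusted p = 0.00782). With slide as a fixed block it was 0.80 (adjusted p = 0.0759). Tsc22d3, induced by glucocorticoid, had a log2 fold change of -0.30 (adjusted p = 0.0767), which was -0.04 with quantile normalisation and with the deposited values (adjusted p = 0.879 and 0.865). Usp2, a deubiquitinase, had 0.47 (adjusted p = 0.141) and Cdkn1a, an inhibitor of the cell cycle, -0.27 (adjusted p = 0.153), which was -0.16 with quantile normalisation, -0.12 with the deposited values and 0.10 with the mean of its probes.

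Of 12 genes through which hormones and activity reach the clock, Fos and Creb1 rose and 10 did not pass, beside 11.2% higher among all genes, with a median of -0.01. Fos, an immediate early gene, had values of -2.22, -2.18 and -2.36 in Ctrl and -0.70, -0.55 and -0.25 in OGT_SCKO. Every OGT_SCKO pool was above Ctrl, and Fos changed by 1.75 in log2 (SE 0.14, limma adjusted p = 0.000617). Creb1, which binds cAMP response elements, changed by 0.37 in log2 (SE 0.10, limma adjusted p = 0.0453). It passed in 6 of 19 alternatives and in none of the 6 fits that leave out a pool, with adjusted p of 0.0964, 0.123 and 0.161 without Ctrl 1, 2 and 3 and 0.067, 0.0779 and 0.1103 without OGT_SCKO 1, 2 and 3. Dusp1, a phosphatase, and Nr3c1, the glucocorticoid receptor, had log2 fold changes of -0.35 and -0.38 (adjusted p = 0.125 and 0.170).

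**Figure D4:**
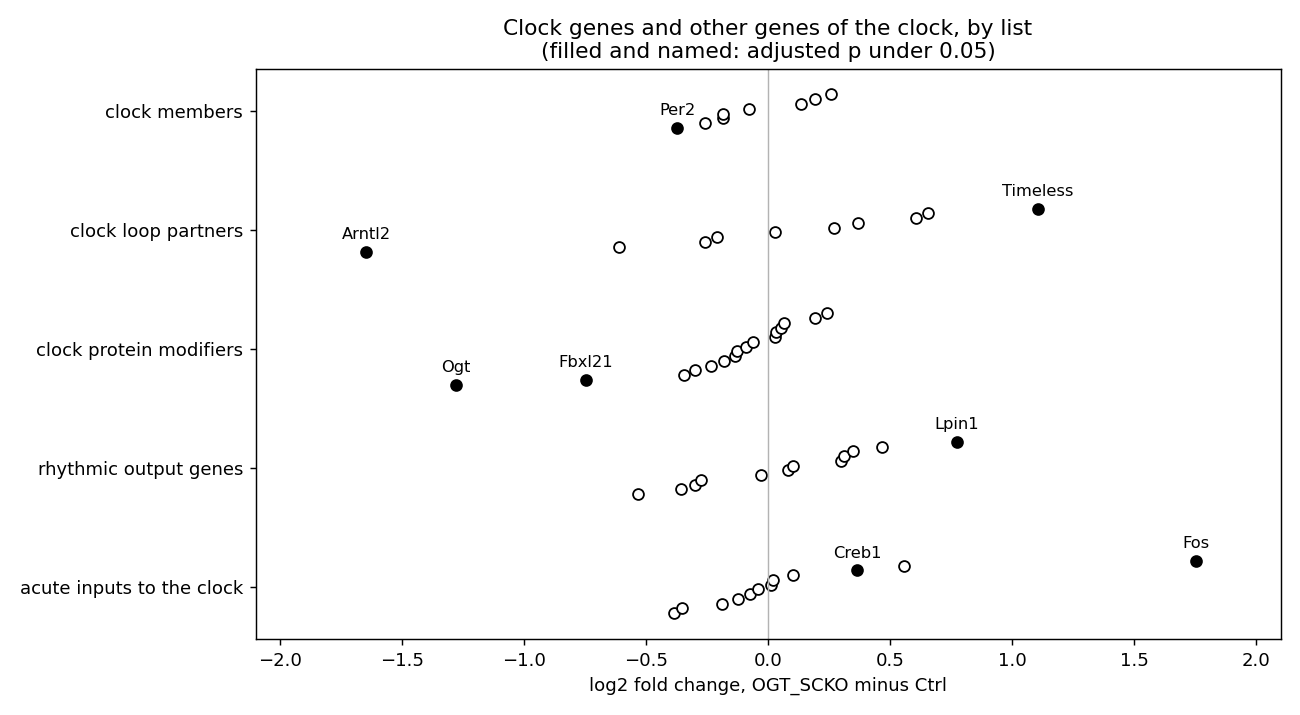
Log2 fold change (OGT_SCKO minus Ctrl) of the measured clock genes and of 4 lists of other clock genes; each point is a gene, height within a row only separates points, and filled, named points have a limma adjusted p under 0.05. Per2 is the filled point among the 8 clock genes, and 7 points are filled among the genes of the 4 lists.

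Among 38 genes of the loop partners, protein modifiers and rhythmic outputs, those most like Arntl across the 6 pools were Fbxw11 (Pearson r = 0.889, Spearman rho = 0.829), Csnk1d (r = 0.887, rho = 0.771) and Csnk1a1 (r = 0.887, rho = 0.829). Their exact permutation p-values of r were 0.0181, 0.0292 and 0.0347, and 0.229, 0.264 and 0.264 after Benjamini-Hochberg adjustment over the 38. The exact permutation p-values of rho were 0.0583, 0.103 and 0.0583, each 0.651 when adjusted. The least like were Tspan4 (r = -0.950, rho = -0.829), Prkaa2 (r = -0.806, rho = -0.371) and Csnk2b (r = -0.665, rho = -0.429). Of these Tspan4 had the smallest exact permutation p, 0.0056, adjusted to 0.211, and Prkaa2 and Csnk2b had 0.0722 and 0.151, adjusted to 0.392 and 0.575. For rho the 3 had exact permutation p of 0.0583, 0.497 and 0.419, adjusted to 0.651, 1 and 0.938.

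Without OGT_SCKO 1 and OGT_SCKO 2, the pools farthest from the Arntl median, r fell to 0.36 for Fbxw11, 0.14 for Csnk1d and -0.05 for Csnk1a1. It was -0.72 for Tspan4, -0.39 for Prkaa2 and 0.08 for Csnk2b. Those 2 pools are the lowest and the highest in Arntl, so leaving them out narrows its range. The drop in r therefore cannot show what these relations rest on.

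Some markers of the cells in the nerve differed between the groups too. Correlations across genes were 0.979 to 0.995 within a group and 0.949 to 0.976 between groups. The summed Schwann cell markers, on a linear scale relative to the 75th percentile, ran from 482 to 638 in Ctrl and from 310.2 to 499 in OGT_SCKO, so the ranges overlapped. Of their 8 genes, S100b and Prx fell and 6 did not pass. Beside this count and those below, 12.1% of all genes were called lower and 11.2% higher. Skeletal muscle markers ran from 4.43 to 5.63 against 1.70 to 2.99 (5 of 6 lower), adipocyte from 2.53 to 14.4 against 0.227 to 1.85 (3 of 5), perineurial from 46.2 to 61.8 against 31.4 to 38.4 (2 of 5), endothelial from 19.1 to 21.2 against 12.2 to 15.7 (1 of 6) and erythroid from 85.8 to 151.8 against 55.6 to 71.2 (1 of 4). Adipoq, called lower, was at -7.13 in OGT_SCKO 2, below the -6.89 of Per3 there, which was not well above background. The size of its fall is therefore not resolved. Sums of fibroblast (0 of 6 passed), mural (Pdgfrb higher, of 5), macrophage (0 of 6) and T and NK cell markers (Klrd1 higher, of 3) overlapped between groups. Klrd1 lay at -6.60, -6.91 and -7.49 in Ctrl, near the level of Cry1, which was not well above background. Its Ctrl level is therefore not resolved, and no size is given for its rise. The fibroblast and macrophage sums ranked the pools in reverse order of the array's 75th percentile, from Ctrl 2 highest to OGT_SCKO 2 lowest. The Schwann cell sums did so except that Ctrl 1 and Ctrl 3 changed places. The part of the scaling in these sums was not tested. Lep, Ckm, Cd3g and Cd8a were not measured above background. The part of these marker differences in the values of Per2 and the other clock genes was not tested.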

How the data were processed

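Sciatic nerve RNA was hybridised in 1 colour (red). Per the file headers, intensity values came from Agilent Feature Extraction, version 11.5.1.1 per the submitters' processing notes, which subtracted the background. The authors' deposited log2 values served as an alternative; the sources used here do not give their full processing. Control and outlier spots were left out of 43020 spots, spots of a probe were averaged, and log2 of the processed signal was set relative to the 75th percentile of each array. A probe was kept if all arrays of 1 group or both had it well above background (24268 probes), and the brightest stood for a gene (19046 genes). Groups were compared with limma 3.58.1 in R 4.3.3, without covariates, with Benjamini-Hochberg adjustment; fits were tested on simulated data. Single probes come from the fit over probes. Named genes were all members, up to 4 genes of each clock list with the smallest p, the 3 most and 3 least like Arntl, and up to 2 markers per cell type. The members and lists were chosen with earlier results of these data known, and 1 listed gene is not reported here. The number of arrays limits the precision. Alternatives covered scaling, background correction, the filter, probe averaging, the deposited values, slide, the replicate number, variance models and leaving out each array.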

Additional observations from a re-analysis of the deposited data

How the results depend on the processing

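No clock gene passed in limma with median scaling, normexp, no filter on dim probes, slide as a fixed block or a replicate block. Of all genes 23.0%, 14.3%, 8.69%, 6.44% and 7.77% passed in these fits, in that order. The unadjusted limma p was under 0.05 in 1 clock gene under each, except 2 with no filter, which also tests Cry1 and Per3. With the mean of a gene's probes 2 clock genes passed (Per1 and Per2), beside 24.2% of all genes. With array weights 2 passed (Per2 and Nr1d1), beside 49.4% of all genes. Leaving out 1 pool gave 0 to 1 clock genes, 5 to 10 calls among the 4 lists (7 with all pools) and 1976 to 5632 genes in all. Over all genes 4440 changed, against 2722 with normexp, 2632 with no filter, 1226 with slide as a fixed block, 407 within slide 1 and 9401 with array weights; the lists gave 4, 0 and 23 calls in the last 3. With slide as a random block 1 clock gene, 7 list genes and 5244 genes in all passed. The slide correlation of that fit was negative, -0.137, so it makes no allowance for a shift shared by a slide. Array weights were estimated gene by gene, an alternative chosen after seeing the data, because limma's default estimator, the one planned, stopped before converging. That default gave OGT_SCKO 3 a weight of 34.1 and called 11567 genes, 4 clock genes and 29 list genes; the gene-by-gene weight of that pool was 6.46. Same-numbered pools deviated with correlations of -0.27, -0.53 and 0.06. With 3 pools per group these values do not settle whether the numbers pair the pools. With the replicate block 1480 genes, 0 clock genes and 3 list genes passed, and Per2 had a limma adjusted p of 0.149. Directions turned in genes that did not pass: Dbp to 0.0069 with quantile normalisation, its second probe to 0.0793 there and to 0.0766 with the deposited values, Arntl to 0.0024 with normexp and 0.11 without OGT_SCKO 1 (-0.284 to 0.113 over the fits that leave out a pool), Nr1d2 to -0.0527 with array weights and -0.0482 without OGT_SCKO 2 (-0.0482 to 0.234 over those fits), its second probe to -0.0283 with array weights, -0.0168 without OGT_SCKO 2 and -0.00097 without Ctrl 2 (-0.0168 to 0.198), and Cdkn1a to 0.10 with the mean of its probes. The causes were not tested. Clock, Per1, Per2, Cry2 and Nr1d1 kept their direction in all 19 alternatives.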
